A study of Macaca mulatta with 13 samples.

Results

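The cells described here are CD8 T cells of the rhesus macaque colon that carry RNA of GZMK, the gene of granzyme K. They were taken from single-cell RNA counts as barcodes kept by the authors in which CD3D, CD3E and CD3G together gave at least 3 unique molecular identifiers (UMIs, each marking 1 captured RNA molecule) and more than MS4A1 and CD79A together. JCHAIN had to lie under 1% of the UMIs, CD8A at 1 or more, CD4 at 0 and GZMK at 1 or more. This left 698 cells of 20567, out of 11521 T cells and 3720 CD8A T cells. The 3022 CD8A T cells of the same libraries in which no GZMK UMI was found are the cells they are set against. The members were thus chosen by GZMK itself, whose values are given as a description only.

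The study concerns GVHD (acute graft-versus-host disease, the attack of transplanted donor T cells on the recipient) and by its title how donor T cells come to reside in the gut. The labels name 13 colon libraries of Macaca mulatta: 3 of combined host and donor cells and 2 of donor cells and 4 of host cells from transplanted animals with GVHD, and 4 of healthy untransplanted controls. Live leukocytes, recognised by CD45 on their surface, had been sorted from thawed samples, and they lacked staining with the CD45 antibody marked IVas in the protocols. Host and donor fractions of some GVHD samples were parted by the macaque MHC class I molecule MAMU-A001, and in others by computation.

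Granzyme K is a serine protease stored in the granules of cytotoxic lymphocytes. In humans and mice, CD8 T cells that express it are mostly memory cells that make EOMES, a T-box transcription factor, and they are known from inflamed tissues, where they often hold less granzyme B and perforin than terminal effector cells. In the gut they are usually told apart from resident intraepithelial cells, which bear the integrin CD103 (gene ITGAE) that binds E-cadherin on epithelium.

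Libraries are numbered here by the ending of their barcodes, because no source ties those endings to samples, animals or groups. A number is therefore an unassigned library, no group of replicates can be formed, and no test or p-value is given. Values are shown library by library, and a gene is called higher or lower where its ratio had the same sign in every library compared. Libraries 4 and 6 shared 5323 barcodes, where other pairs among libraries 1 to 7 shared between 6 and 55, and library 4 was left out. No barcode was shared between members from different libraries. Whole libraries held between 3128386 and 19655788 UMIs.

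The share of CD8A T cells that carried GZMK differed widely between libraries. Over all libraries it was 18.8% (exact 95% binomial interval 17.5 to 20.1, which covers counting error only). Among the 10 libraries that held 20 or more CD8A T cells the lowest share was 1.64%, the median 13.2% and the highest 76.1%. Library 5 had 118 of 155 CD8A T cells (76.1%, 68.6 to 82.6) and library 2 had 401 of 817 (49.1%, 45.6 to 52.6), both above the intervals of all the other libraries. Library 12 lay at the other end, with 21 of 1283 (1.64%, 1.02 to 2.49), followed by library 13 with 12 of 361 (3.32%, 1.73 to 5.73). Between them lay libraries 11 (66 of 263, 25.1%), 3 (6 of 30), 10 (8 of 51, 15.7%), 8 (18 of 168, 10.7%), 9 (19 of 228, 8.33%) and 1 (29 of 361, 8.03%). From library 11 down to library 12, each library's interval overlapped that of its neighbour in this order. Library 6 had 3 CD8A T cells and library 7 had 0, and neither held a member.

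Libraries 2 and 5 held 519 of the 698 cells (74.4%), and library 2 alone held 57.4%, so pooled values below mostly describe these. When every cell was thinned to 1500 UMIs before the rule was applied, the shares were 64.1% in library 5, 40.5% in library 2 and 1.66% in library 12, and the order of these libraries was the same.

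**Figure D1:**
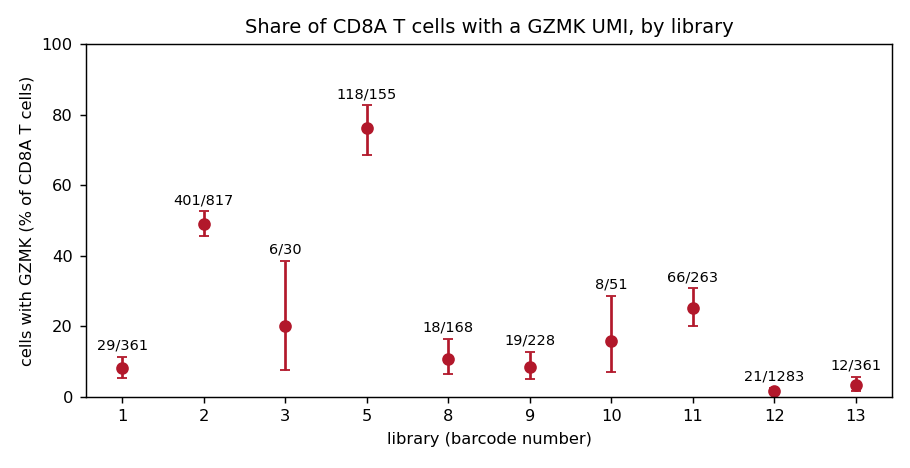
Share of CD8A T cells with at least 1 GZMK UMI (% of CD8A T cells) in each library with at least 20 such cells, with exact 95% binomial intervals and the cell numbers above each point. Libraries 5 (76.1%) and 2 (49.1%) stand above all others and library 12 (1.64%) below.

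Within a carrying cell GZMK was not a trace signal. A median of 5 GZMK UMIs was counted per cell, with a highest value of 48. There were 111 cells with 1 UMI, 88 with 2 and 499 with 3 or more. The level in members ran from 1047 to 2479 CPM, the usual scaling of summed UMIs to the total of the same cells, over 10 libraries, with a median of 1479. A GZMK UMI was carried by 18.8% of CD8A T cells at a median depth of 3320 UMIs, against 6 of 2678 B cells (0.224%, at 3566.5 UMIs) and 2 of 1491 plasma cells (0.134%, at 11042 UMIs). B and plasma cells should lack the gene and give the background from free RNA.

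GZMK RNA was not confined to the cells chosen. The 698 cells held 51.5% of all GZMK UMIs of the kept cells. It was also found in 491 of 5497 T cells with neither CD8A nor CD4 UMIs (8.93%) and in 124 of 1971 T cells with CD4 and without CD8A (6.29%). The T cells with neither coreceptor also had their highest shares in library 5 (42.9%) and library 2 (17.3%). At the low end the order was another, with 4.23% in library 12, above 2.32% in library 13, 2.42% in library 1 and 4.01% in library 9. These cells had 11356 CPM of GZMA and 42.1 CPM of EOMES, and which of them are CD8 T cells whose CD8A RNA was missed was not tested.

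Cells just inside and just outside the thresholds are described without a test. The 21 members with exactly 3 CD3 UMIs had 325 CPM of GZMA, whereas the 12 cells just outside, with 2 CD3 UMIs, had 1484 CPM. A further 77 cells met every condition but had CD4 UMIs, with 673 CPM of GZMK and a median depth of 5556 UMIs, and 18 were left out for JCHAIN, with a median of 18677.5 UMIs. Of the members, 261 had a single CD8A UMI.

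The label was checked against EOMES, the marker that the rule did not use. EOMES had 59.3, 42.0, 9.87, 154 and 29.2 CPM in cells with GZMK of libraries 1, 2, 5, 11 and 12, against 0, 4.85, 0, 6.75 and 0.812 CPM in cells without GZMK. Library 11 was highest and library 5 lowest among cells with GZMK. Over 10 libraries, cells without GZMK reached 12.4 CPM in library 9 and 10.4 CPM in library 10, above the 9.87 CPM of cells with GZMK in library 5. These values rest on 115 EOMES UMIs in cells with GZMK and 17 in cells without. EOMES was also higher in the cells with GZMK in each of the 10 libraries that had 5 or more of both kinds of cells, a setting chosen after the data were seen, as were 0.482% of 6226 genes. In libraries 3, 8 and 9 this rests on 2 UMIs each and in library 10 on 1.

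EOMES marked a minority of the cells at this depth. It was found in 37.9% of the cells with GZMK of library 11, against 2.03% of those without. In library 5 it was found in 4.24% of the cells with GZMK, against 0 of 37 cells without, where 0 UMIs allow up to 17.4 CPM (3 counts), so that a difference was not detectable there. CD8B, the partner chain of CD8A in the CD8 heterodimer of conventional cytotoxic T cells, ran from 0 to 109 CPM in cells with GZMK and from 0 to 40.5 CPM in cells without over 10 libraries. It was low in both kinds of cells.

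Cells with GZMK were next compared with cells without GZMK inside each library that had 20 or more of both, namely libraries 1, 2, 5, 11 and 12. Each value is the log2 ratio of summed CPM with 5 CPM added, which understates the change of low genes. Of 6155 genes with a mean of at least 10 CPM, 345 (5.61%) were higher in all 5 libraries and 289 (4.7%) were lower, 10.3% in either direction. With TMM scaling factors in place of total UMIs the split was 199 higher and 375 lower of 6132 genes, of which 161 and 189 are among the 345 and 289. The median of all genes was 0.03, and -0.05 with TMM. In the 10 libraries with 5 or more cells of both kinds, 30 genes (0.482%) were higher and 48 (0.771%) lower in each, and in the 8 libraries with 10 or more, 89 of 6235 (1.43%) were higher and 90 (1.44%) lower.

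Pooled over libraries, the depths were close, with a median of 3387.5 UMIs in cells with GZMK and 3300 in cells without. Within libraries the depths differed more. Cells with GZMK were deeper in library 1 (5039 against 2884 UMIs) and shallower in library 11 (2329 against 3590 UMIs), and the medians were 3425 against 3423 in library 2, 4232 against 3597 in library 5 and 3421 against 3643 in library 12. The part of depth in the ratios was not tested beyond the thinning given in the closing section.

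Of the list of genes known from GZMK and EOMES effector memory cells in humans, 18 were measured, 6 were higher in all 5 libraries and 0 were lower, with a median log2 ratio of 0.80. The other gene lists below, as this one, were drawn up with results of these data known and serve only as a description. Their counts stand beside 5.61% higher and 4.7% lower over all measured genes, and in short lists a single called gene says little. Besides EOMES, the transcription factor, the higher genes were CXCR4, CST7, LYAR, PIK3R1 and ITM2C. CCL5, CD28, CRTAM, DUSP2 and CD74 were among the 12 whose sign differed between libraries.

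CXCR4, the receptor of the chemokine CXCL12, had 481, 489, 174, 324 and 243 CPM in cells with GZMK of libraries 1, 2, 5, 11 and 12, against 124, 197, 81.1, 93.1 and 61.5 CPM in cells without GZMK. Every library showed the difference, with a median log2 ratio of 1.75 (1.06 to 1.91). Over 10 libraries CXCR4 ran from 107 to 1118 CPM in cells with GZMK and from 61.5 to 334 CPM in cells without, and it was higher with GZMK in 10 of 10.

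CST7, which encodes cystatin F, an inhibitor of the cathepsins that activate granule proteases, had 442, 633, 988, 336 and 477 CPM in cells with GZMK, against 107, 259, 574, 89.1 and 275 CPM in cells without (median log2 ratio 1.27, 0.78 to 1.99). It too was higher in 10 of 10 libraries. LYAR, a nucleolar protein gene that recurs in human GZMK cells, had a median of 0.77 (0.17 to 1.58) and was higher in 10 of 10.

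**Figure D2:**
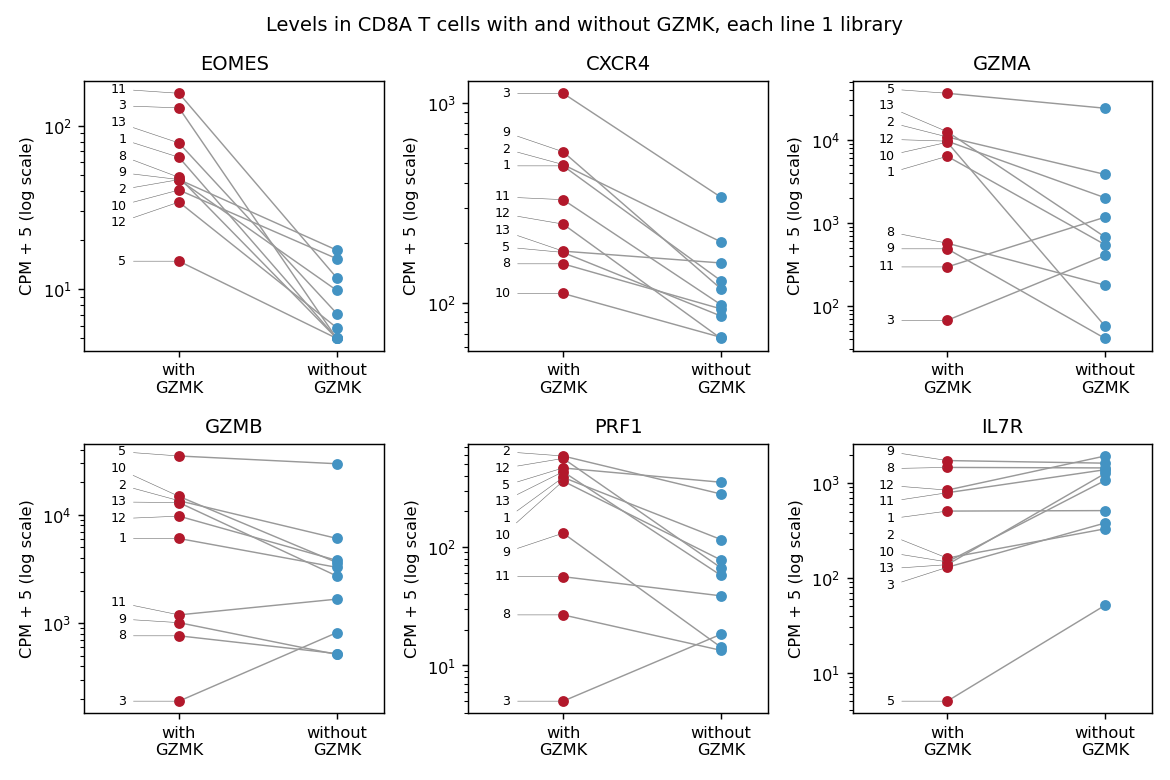
Levels (CPM + 5, log axis) of 6 genes in CD8A T cells with GZMK (left, red) and without GZMK (right, blue), each line 1 of 10 libraries with its number at the left. EOMES and CXCR4 lines all descend to the right, GZMA and GZMB in cells with GZMK fall into a high and a low set of libraries, and IL7R lies at 0 CPM in cells with GZMK of library 5.

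The genes that were higher in all 5 libraries were ranked by median ratio. Other genes among the 12 highest of these were RGS9 (1.68), which speeds G protein shutdown, PLEK (1.60), which encodes the kinase C substrate pleckstrin, ITM2C (1.55) and CTSW (1.54), a cathepsin of cytotoxic lymphocytes. They also included APOBEC3G (1.40), a cytidine deaminase that restricts retroviruses, TOP2A (1.35), KIF22 (1.32), a mitotic kinesin, and SLAMF6 (1.29), a receptor kept by progenitor-like T cells in mice. An unnamed gene, ENSMMUG00000063549, had 1.37. RGS9 and PLEK were near 0 in library 5, with ratios of 0.04 and 0.10. TOP2A rests on 2 and 1 UMIs in cells with GZMK of libraries 1 and 11, and its sign was mixed over 10 libraries.

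Of 12 measured genes of cytotoxic granules, 5 were higher in all 5 libraries (PRF1, GNLY, NKG7, CST7 and CTSW), 0 were lower and 7 differed in sign, with a median log2 ratio of 0.86. PRF1, the pore-forming perforin, had 382, 582, 460.4, 51.2 and 555 CPM in cells with GZMK of libraries 1, 2, 5, 11 and 12, against 111, 276, 348, 33.7 and 61.7 CPM in cells without (median 1.07, 0.40 to 3.07). Library 11 was low in both kinds of cells, and the ratio was largest in library 12.

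GNLY, which encodes granulysin, a membrane-lytic granule protein, had a median ratio of 0.84 (0.67 to 1.74). Its level over 10 libraries was between 62.1 and 9048 CPM in cells with GZMK and between 292 and 5701 CPM in cells without. NKG7, needed for granule release in mice, had a ratio of 0.77 (0.24 to 1.37) and levels of 807 to 4279.9 CPM with GZMK and 347 to 2503 CPM without.

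The other granzymes did not move one way. GZMA, a tryptase of the same granules, had 6363, 10880.3, 36546, 290.3 and 9681 CPM in cells with GZMK of libraries 1, 2, 5, 11 and 12, against 542, 3839, 24136, 1170.1 and 2007 CPM in cells without. It was higher in 4 of the 5 libraries and lower in library 11 (median 1.50, -1.99 to 3.54). GZMB, the granzyme that cleaves caspases, had 6047, 13498, 34880.4, 1189.5 and 9720.3 CPM in cells with GZMK, against 3273, 6056, 29594, 1664 and 3796 CPM in cells without (median 0.88, -0.48 to 1.36), again lower only in library 11 of these 5. GZMM had a median ratio of 1.32 and a negative ratio only in library 5, where 1.64 CPM in cells with GZMK and 5.79 CPM in cells without rest on 1 UMI each and give no direction.

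Combinations in single cells, thinned to 1500 UMIs, set the libraries further apart. Both GZMA and GZMB were found in 98.3% of the 118 cells with GZMK of library 5, in 80.3% of 401 in library 2 and in 62.1% of 29 in library 1. They were found together in 38.1% of 21 cells in library 12 and in 15.2% of 66 in library 11. Neither was found in 66.7% of the cells of library 11, against 0% in library 5, where a count of 0 allows a share of up to 2.54% (3 counts). B cells and plasma cells, which should lack both genes, were thinned alike. Of 67 B cells of library 2, GZMA was found in 4.48% and GZMB in 4.48%. Neither gene was found in 40 B cells of library 5 (0 cells allow up to 7.5%) or 379 of library 11 (up to 0.792%). Of 61 plasma cells of library 2, GZMA was found in 9.84% and GZMB in 3.28%. Of 63 plasma cells of library 5, GZMA was found in 0% and GZMB in 3.17%, and neither gene in 160 of library 11.

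**Figure D3:**
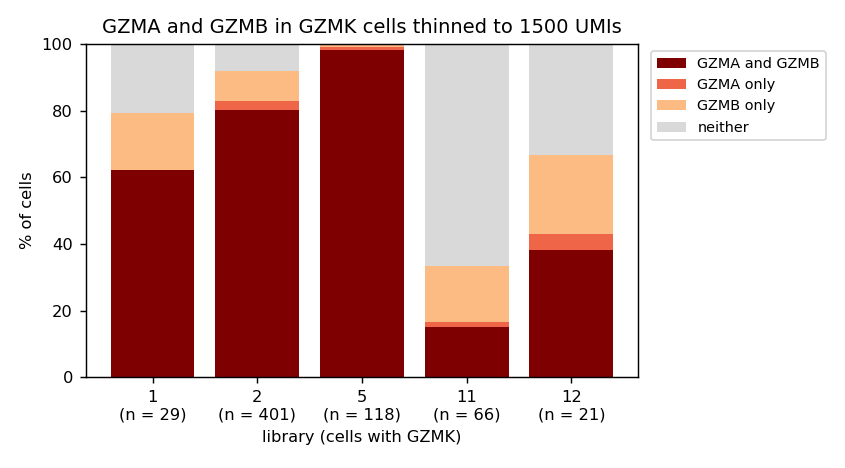
Share of cells with GZMK (% of cells, each thinned to 1500 UMIs) in which GZMA, GZMB, both or neither were found, for the 5 libraries compared. Both were found in 98.3% of cells of library 5 and neither in 66.7% of cells of library 11.

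In library 2, which has the most cells, levels of other genes differed with the amount of GZMK, by which the cells were split here. In its 285 cells with 3 or more GZMK UMIs, EOMES had 49.2 CPM, CXCR4 594 CPM and CST7 736 CPM. In its 68 cells with 1 GZMK UMI they had 20.2, 246 and 358 CPM. IL7R went the other way, with 129.9 CPM in the cells with 3 or more UMIs and 229 CPM in those with 1. GZMB had 13991 and 13098 CPM, and the median depths were 3485 and 3326.5 UMIs. In library 11, the 47 cells with 3 or more GZMK UMIs had 179 CPM of EOMES, 325 CPM of CXCR4 and 708 CPM of IL7R, against 86.4, 389 and 605 CPM in the 9 cells with 1. In library 5, the 93 cells with 3 or more had 10.2 CPM of EOMES and 194 CPM of CXCR4, against 0 and 128 CPM in 15 cells with 1, and IL7R was at 0 in both. The lower CXCR4 and higher IL7R of cells with 1 UMI in library 2 were thus not seen together in either of these, and the split uses the value by which the members were chosen.

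Among chemokines, CCL4L1, a chemokine of activated T cells, was the only 1 of 5 measured genes that was higher in all 5 libraries, and 0 were lower. It had 231, 352, 847, 837 and 711 CPM in cells with GZMK, against 107, 104, 394, 74.2 and 566 CPM in cells without (median ratio 1.09, 0.33 to 3.41), and was higher in 10 of 10 libraries. CCL4L1 belongs to a family of near-identical copies between which reads may be split. CCL5 was abundant in both kinds of cells, at 310.5 to 3382 CPM with GZMK and 1188 to 4413 CPM without, and its sign differed between libraries (median -0.02).

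Among cytokines, IFNG, the macrophage-activating interferon gamma, and IL10, an anti-inflammatory cytokine, were higher in all 5 libraries and 0 of the 5 measured were lower. IFNG had 132, 127, 222, 319 and 1529 CPM in cells with GZMK of libraries 1, 2, 5, 11 and 12, against 107, 87.2, 116, 171 and 198 CPM in cells without (median 0.88, 0.30 to 2.92). Library 12 stood far above the others. IL10 was low throughout, at 5.69 to 34.5 CPM in cells with GZMK of these libraries and 2.70 to 17.4 CPM in cells without (median 1.14). Its values in library 11 rest on 1 UMI with GZMK and 2 without and give no direction. Over 8 and over 10 libraries the sign of IL10 was mixed.

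Residency genes showed no common direction. Of 15 measured, 0 were higher and 2 (ITGB7 and RGS2) were lower in all 5 libraries, with a median of -0.17. ITGAE had 152, 124, 122, 119.5 and 195 CPM in cells with GZMK, against 128, 153, 133, 184 and 193 CPM in cells without (median -0.13, -0.60 to 0.24). ITGB7, the beta chain that pairs with CD103 and with integrin alpha 4, had -0.22 (-0.96 to -0.15). ITGA1, the CD49a chain that binds collagen, had a median of -0.36 and CD69, which holds back the egress receptor S1PR1, had -0.28, with signs that differed between libraries. RGS2, a regulator of G protein signalling, had -0.32 and was lower in 10 of 10 libraries.

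ITGAE RNA thus occurred in cells with GZMK as well. After thinning it was found in 13.8% to 23.8% of them over the 5 libraries, against 8.11% to 24.4% of cells without GZMK. In library 2 the 142 cells with both GZMK and ITGAE had 32.3 CPM of EOMES, 351 CPM of CXCR4 and 13787 CPM of GZMA, against 49.2, 592 and 8709 CPM in the 259 cells with GZMK but no ITGAE. The cells with ITGAE were also deeper, at a median of 4063.5 against 3155 UMIs, and the part of depth in this split was not tested. In library 11 the direction was the other way for EOMES and CXCR4, at 170.3 and 435 CPM in 17 cells with ITGAE, against 147 and 277 CPM in 49 without, while GZMA had 378 and 252 CPM. In library 5 EOMES had 7.29 and 11.99 CPM and CXCR4 182 and 168 CPM in 50 cells with and 68 without ITGAE.

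Against CD8A T cells that carried ITGAE and no GZMK, of which there were 1295, 600 of 6286 genes (9.55%) were higher and 511 (8.13%) lower in each of libraries 1, 2, 11 and 12. Against all cells without GZMK, the same 4 libraries gave 652 higher and 488 lower of 6295 genes. EOMES had a median log2 ratio of 3.11, CXCR4 1.98 and ITM2C 1.86, all higher in each. IL7R (-0.83), CD69 (-0.48), IL23R (-1.76), CCR6 (-1.55) and THY1 (-1.69) were lower in each. The cells with GZMK are the same in both comparisons, so these values are not a separate line of evidence.

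Genes of circulation and lymph node homing gave 2 higher and 1 lower of 9 measured, with a median of 0.20. ITGB2, the beta chain of LFA-1, had a median of 0.53 (0.23 to 1.92) and was higher in 10 of 10 libraries. CCR7, the receptor for lymph node chemokines, differed in sign (median 0.53, -1.13 to 1.02), being lower in library 2, where it had 42.6 CPM with GZMK and 99.3 CPM without. S1PR1, the receptor for egress into blood, was under the limit of 10 CPM and was not measured. CX3CR1 and TBX21, genes of circulating effector cells, were at or near 0 in both kinds of cells, at no more than 1.20 and 2.70 CPM in any of the 10 libraries.

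Among chemokine receptors, CXCR4 and GPR183 were higher and CCR6 was lower, of 4 measured. GPR183, which steers cells along oxysterols, had 0.45 (0.04 to 0.82). CCR6, the receptor for CCL20 found on type 17 T cells, had 33.0, 4.80, 1.64, 5.69 and 48.7 CPM in cells with GZMK, against 70.7, 33.9, 11.6, 45.9 and 64.5 CPM in cells without (median -1.32, -2.25 to -0.37).

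Of 12 measured cytokine receptor genes, 0 were higher and 3 were lower in all 5 libraries, with a median of -0.28, and 0.05 in library 1 alone. IL7R, the receptor chain for the survival cytokine IL-7, had 501, 157, 0, 785 and 838 CPM in cells with GZMK of libraries 1, 2, 5, 11 and 12, against 507, 324, 46.3, 1378 and 1925 CPM in cells without. The ratio in library 1 was -0.02, so the call there is marginal, and the median was -1.03 (-3.36 to -0.02). Over 10 libraries the sign of IL7R was mixed. Libraries 8 and 9 had 1457 and 1722 CPM with GZMK, slightly above 1439 and 1616 CPM without.

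In library 5, 0 of 118 cells with GZMK carried an IL7R UMI, which allows a share of cells with such a UMI of up to 2.54%, against 18.9% of the 37 cells without. IL2RA, the high-affinity chain for IL-2, had a median of -0.87 (-2.98 to -0.04) and was lower in 10 of 10 libraries, with 0 to 309.9 CPM with GZMK and 26.7 to 359.9 CPM without. In library 3 its 0 UMIs in cells with GZMK allow up to 186 CPM, against 26.7 CPM without. No direction can be read in that library. IL23R, the receptor chain for IL-23 on type 17 cells, had -1.17 (-2.41 to -0.70), on 5 UMIs in cells with GZMK of the 5 libraries. Its 1.64 CPM with GZMK and 5.79 CPM without in library 5 rest on 1 UMI each and give no direction.

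**Figure D4:**
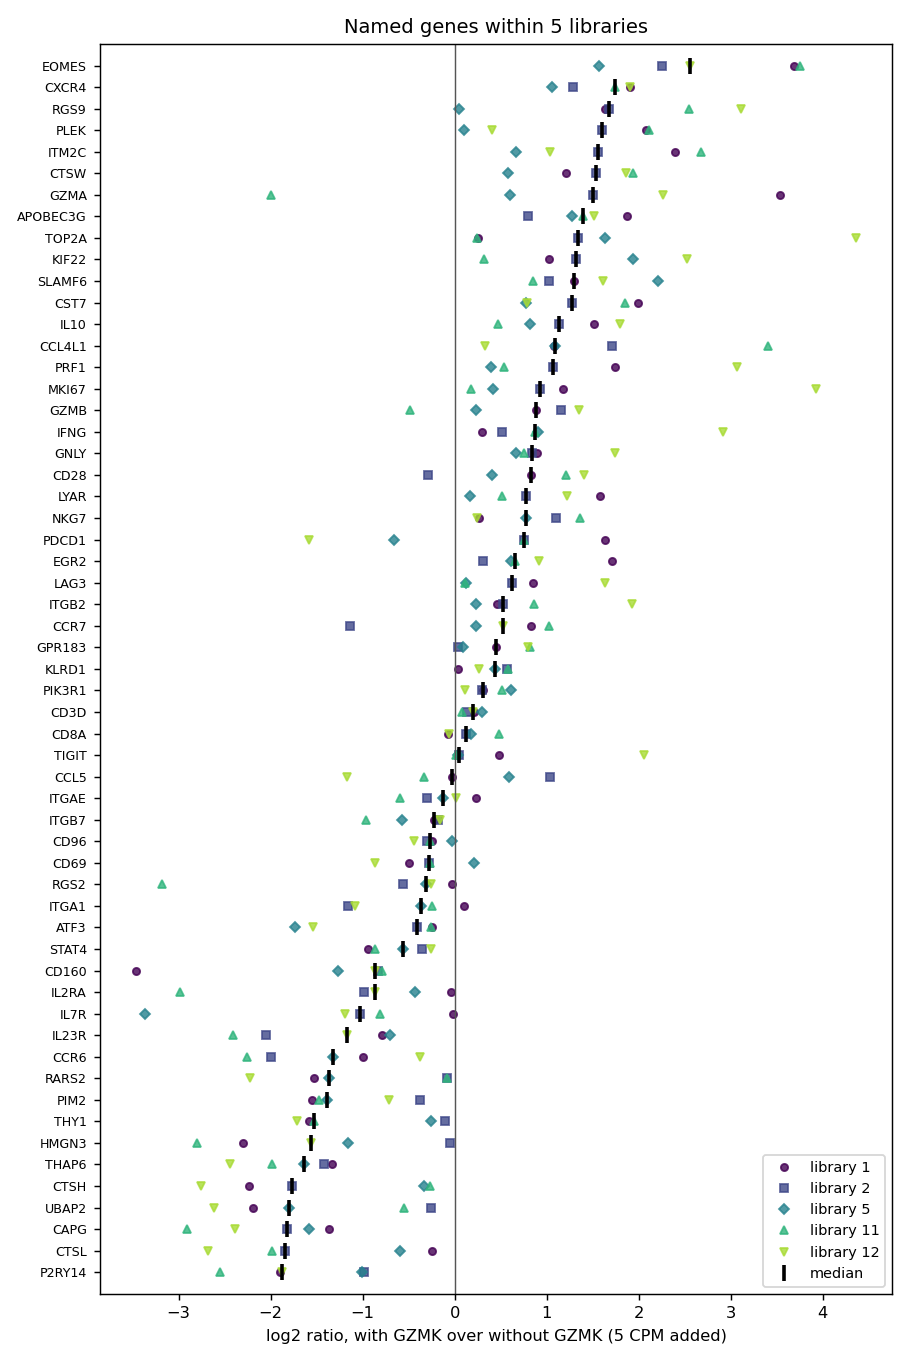
Log2 ratio of CPM (5 CPM added) in CD8A T cells with GZMK over those without for the named and measured genes, 1 symbol per library and a bar at the median. All 5 symbols of EOMES and CXCR4 lie above 1, those of CAPG and THAP6 below -1, and those of GZMA span 0.

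Among inhibitory receptors 2 were higher and 2 lower of 8 measured. LAG3, which binds MHC class II, had 409, 629.6, 311, 102 and 399 CPM in cells with GZMK, against 225, 408, 284, 94.5 and 125 CPM in cells without (median 0.62, 0.11 to 1.64). TIGIT had a median of 0.05, with ratios of 0.02 to 0.48 in 4 libraries and 2.06 in library 12. CD160, a receptor of intraepithelial and natural killer (NK) cells, had -0.87 (-3.47 to -0.79) and CD96 had -0.27. PDCD1, the PD-1 gene, differed in sign (median 0.75, -1.58 to 1.63) and was low, at no more than 62.1 CPM in any library.

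Costimulatory receptors gave 0 higher and 0 lower of 9 measured. CD28, the main costimulatory receptor, was higher in 4 of 5 libraries (median 0.83, -0.29 to 1.41). Among transcription factors, EOMES was the only 1 of 16 measured that was higher and STAT4, which carries the IL-12 signal, the only 1 that was lower (-0.56, -0.94 to -0.26). These counts lie near the shares over all measured genes, 5.61% higher and 4.7% lower. TOX, linked to exhaustion in mice, differed in sign (median 0.81, -0.96 to 1.44).

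Of 5 measured NK receptor genes, KLRD1, the CD94 chain, was higher in each of the 5 libraries (0.44, 0.04 to 0.58) and 0 were lower. Of T cell receptor chain genes, CD3D alone was higher of 10 measured (0.20), and CD8A differed little (0.12, -0.08 to 0.48). Of 6 interferon genes 0 were higher and 1 was lower, with a median of 0.31. Of 10 immediate early genes EGR2 was higher (0.66), ATF3 was lower (-0.41) and the others differed in sign.

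Genes of MHC class II, the peptide-presenting molecules that activated human T cells also make, gave 0 higher and 0 lower of 4 measured, because libraries fell on both sides. Their median ratio was 1.92 in library 2, 1.07 in library 5 and 2.44 in library 11, against -0.76 in library 1 and -1.07 in library 12. CD74, the invariant chain, had 840.1 CPM with GZMK and 303 CPM without in library 2, and 58.4 CPM with and 74.5 CPM without in library 12. In library 3, where 6 cells carried GZMK, CD74 had 8321 CPM and HLA-DRA 4719 CPM, against 1789 and 948 CPM in cells without, and B cell markers there summed to 1118 CPM with GZMK and 440.5 CPM without. In library 11 B cell markers summed to 165 CPM with GZMK and 45.9 CPM without. Myeloid markers summed to 13.2 and 0 CPM in cells with GZMK of libraries 1 and 12, against 1553 and 1715 CPM in cells without, and their part in the class II ratios was not tested.

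Most cell division genes differed in sign between libraries. Of 10 measured, MKI67 and TOP2A were higher in all 5 libraries and 0 were lower, with a median of 0.74, and -0.08 in library 11 alone. In library 11 MKI67 and TOP2A rest on 2 and 1 UMIs in cells with GZMK. Over 8 and over 10 libraries the sign of both genes was mixed. MKI67, which marks cycling cells, had 52.8, 101, 55.9, 11.4 and 243 CPM in cells with GZMK, against 20.5, 50.9, 40.6, 9.45 and 11.4 CPM in cells without (median 0.93, 0.18 to 3.92). In library 12 its 25 UMIs came from 4.76% of 21 cells, which is 1 cell. MKI67 was found in 16.2% of cells with GZMK of library 2 and 20.3% of library 5, against 8.17% and 16.2% of cells without. In library 11 the shares were 3.03% and 3.05%, and 0% and 1.52% after thinning.

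**Figure D5:**
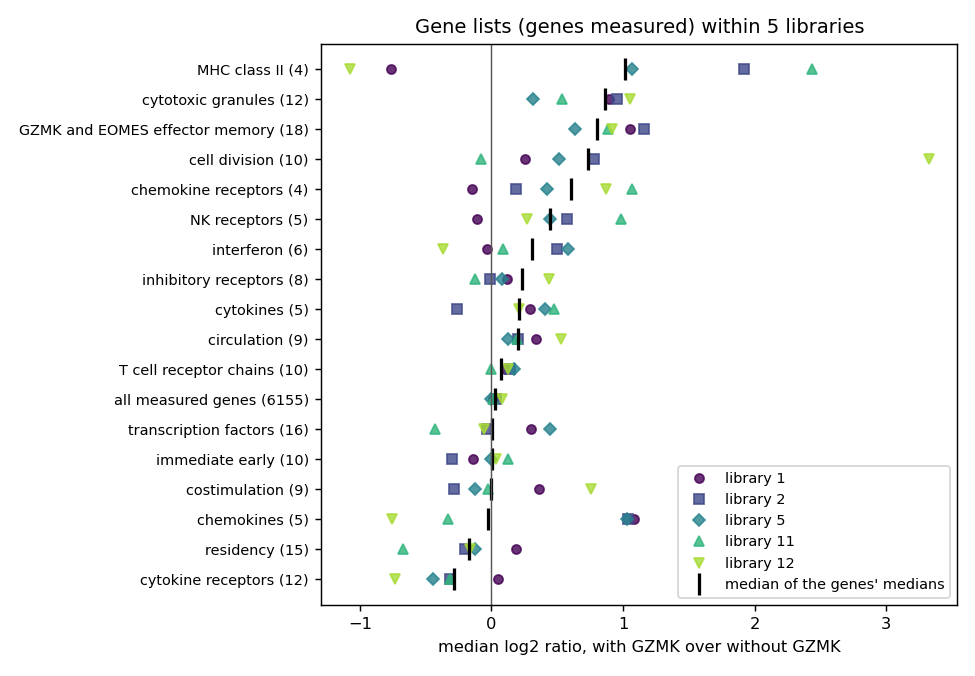
Median log2 ratio of each gene list (number of genes measured in brackets) in CD8A T cells with GZMK over those without, 1 symbol per library, with a bar at the median over genes of each gene's median. MHC class II medians lie on both sides of 0, the cell division median of library 12 (3.32) stands apart, and cytotoxic granules and the effector memory list lie above 0 in each library.

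The genes that were lower in all 5 libraries were ranked alike. The 12 with the lowest median ratio were led by P2RY14 (-1.88), a receptor for UDP-glucose, CTSL (-1.84) and CTSH (-1.77), which are lysosomal cathepsins, CAPG (-1.83), an actin-capping protein, and UBAP2 (-1.80). CAPG had 125, 81.0, 41.1, 22.8 and 48.7 CPM in cells with GZMK of libraries 1, 2, 5, 11 and 12, against 331, 299.8, 133, 204 and 275 CPM in cells without (-2.91 to -1.37). Both kinds did not overlap in these 5 libraries, and how many genes do so was not counted. CAPG was lower in 10 of 10 libraries, over which its levels overlapped. Cells with GZMK of library 3 had 186 CPM, on 3 UMIs, above the 133 CPM of cells without in library 5. THAP6 (-1.64), a zinc finger protein gene, HMGN3 (-1.56), which binds nucleosomes, and PIM2 (-1.38), a survival kinase, were also lower in 10 of 10. HMGN3 had 0 UMIs in cells with GZMK of libraries 1, 3, 8, 9, 10, 11 and 12. In library 8 this allows up to 65.2 CPM, against 8.43 CPM in cells without, so no direction can be read there. The same holds for library 1 (up to 19.8 against 19.6 CPM), library 12 (29.2 against 9.74 CPM) and libraries 3, 9 and 10. HMGN3 had 15.0 CPM with GZMK and 15.7 CPM without in library 2, a ratio of -0.05. PIM2 had 1 UMI in library 3 and 0 in libraries 9 and 10, and THAP6 had 0 in libraries 3 and 10.

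The others were THY1 (-1.53), a surface glycoprotein, RARS2 (-1.36), a mitochondrial arginine tRNA ligase, and the unnamed genes ENSMMUG00000001764 (-1.66) and ENSMMUG00000057791 (-1.35). P2RY14 is a low gene, at no more than 9.74 CPM in cells with GZMK and between 6.32 and 49.1 CPM in cells without over 10 libraries. It had 0 UMIs in cells with GZMK of libraries 1, 3, 8, 9, 10, 11 and 13. In library 1 this allows up to 19.8 CPM, against 13.6 CPM in cells without, so no direction can be read there. Counts of 0 allow up to 17.1 CPM in library 11 and 29.2 CPM in library 12. This also leaves no direction for CTSL (14.8 and 27.0 CPM without GZMK) and ENSMMUG00000001764 (10.8 and 25.4 CPM) in libraries 11 and 12. The same holds for UBAP2 (17.9 and 25.6 CPM) and RARS2 (9.37 and 18.3 CPM) in libraries 1 and 12. It also holds for CTSH (28.8 CPM) and ENSMMUG00000057791 (9.13 CPM) in library 12 and THY1 (9.45 CPM) in library 11.

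The 30 genes that were higher in each of 10 libraries included EOMES, CXCR4, CST7, CCL4L1, LYAR, ITGB2 and ENSMMUG00000063549, and the 48 lower ones included CAPG, THAP6, PIM2, HMGN3, IL2RA, RGS2 and P2RY14. For THAP6, PIM2, HMGN3, IL2RA and P2RY14 some of these signs rest on 0 UMIs in few cells and give no direction. RGS2 had a ratio of -0.03 in library 1, and 1 UMI each in cells with GZMK of libraries 9 and 10. LYAR and ITGB2 rest on 1 UMI each in cells with GZMK of library 3, and for EOMES a difference was not detectable in library 5. PRF1 was higher in 9 of 10. In library 3 it had 0 UMIs in the 6 cells with GZMK, which allows up to 186 CPM, against 1 UMI (13.3 CPM) in cells without, so no direction can be read there.

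Markers of other cell types in the cells with GZMK are given for the whole lists. NK markers (8 genes, including NCR1, TYROBP and KLRD1) summed to 0 to 699 CPM in cells with GZMK and 77.3 to 447 CPM in cells without, and were higher with GZMK in 5 of 10 libraries. NCR1, a defining NK receptor, was at most 17.1 CPM with GZMK and 20.2 CPM without. With all cells that carried NCR1, TYROBP, FCER1G or KIR2DL4 left out, EOMES had a median ratio of 2.65, PRF1 1.25 and CST7 1.33.

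B cell markers summed to 0 to 1118 CPM with GZMK and 30.7 to 440.5 CPM without (higher in 7 of 10), and plasma cell markers to 0 to 640.1 CPM with and 30.9 to 437 CPM without (higher in 8 of 10). Myeloid markers summed to 0 to 1825 CPM with GZMK and 0 to 1715 CPM without (higher in 3 of 10). The highest value with GZMK was in library 5, against 46.3 CPM without. Cells without GZMK had 1553 CPM in library 1 and 1715 CPM in library 12, where cells with GZMK had 13.2 and 0 CPM. The mast cell genes CPA3 and MS4A2, the epithelial gene KRT20 and the stromal genes COL1A1, COL3A1 and VWF were at 0 in all cells with GZMK. The part of admixed B, plasma and myeloid RNA in the ratios was not tested over all 5 libraries.

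Across libraries the cells with GZMK were of unlike content, and these levels are given by the position of each library in the list of labels. If barcode numbers follow the order of the labels, which no source states and the data do not establish, libraries 1, 2, 5, 10, 12 and 13 would be from GVHD animals (1 host, 2 and 5 donor, 10, 12 and 13 combined) and libraries 3, 8, 9 and 11 from healthy controls. A fact that bears on the order is that the labels at positions 4 and 6 carry the same sample number, and libraries 4 and 6 are those that share barcodes. No average and no test was made over these sets. Under that order shares of cells with GZMK would overlap, at 1.64% to 76.1% for GVHD positions and 8.33% to 25.1% for healthy positions.

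GZMA had 6363, 10880.3, 36546, 9388, 9681 and 12578 CPM in cells with GZMK of libraries 1, 2, 5, 10, 12 and 13, against 62.1, 565, 483 and 290.3 CPM in libraries 3, 8, 9 and 11. GZMB had between 6047 and 34880.4 CPM in libraries 1, 2, 5, 10, 12 and 13, and between 186 and 1189.5 CPM in libraries 3, 8, 9 and 11. PRF1 had 356 to 582 CPM in libraries 1, 2, 5, 10, 12 and 13 and 0 to 126 CPM in libraries 3, 8, 9 and 11, and GNLY had 2987 to 9048 and 62.1 to 797 CPM. The sets of libraries did not overlap in these 4 genes. How many of all measured genes separate the sets in the same way was not counted, so whether this is unusual cannot be read.

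FOS, LAG3 and CD69, chosen here after their values were seen, did not overlap either. FOS had 439 to 1656 CPM in libraries 1, 2, 5, 10, 12 and 13 and 3218 to 7519 CPM in libraries 3, 8, 9 and 11, CD69 had 805 to 2376 and 3339 to 6955 CPM, and LAG3 had 311 to 629.6 and 0 to 102 CPM. Values of other genes did not overlap either, among them MKI67, IL2RA and CD28, each with 0 UMIs in at least 1 library. MKI67 and IL2RA had 0 UMIs in libraries 3, 8 and 9, which allows up to 186, 65.2 and 63.0 CPM. MKI67 had 52.8 CPM in library 1 and IL2RA 35.6 CPM in library 10, so no separation can be read for these 2 genes. For CD28, 0 UMIs in library 10 allow up to 107 CPM, against 125 to 210 CPM in libraries 3, 8, 9 and 11. How many of all measured genes do so was not counted.

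In the cells without GZMK, GZMB had 2723 to 29594 CPM in libraries 1, 2, 5, 10, 12 and 13 and 510.3 to 1664 CPM in libraries 3, 8, 9 and 11, also without overlap. PRF1 (52.7 to 348 and 8.43 to 33.7 CPM) and GNLY (2130 to 5701 and 292 to 868 CPM) did not overlap there either. The same held for FOS (238 to 1954 and 3340 to 6123 CPM) and LAG3 (117 to 408 and 13.3 to 94.5 CPM). CD69 had 718 to 4329 and 4379 to 5835 CPM. Separation in these genes was thus not particular to the cells with GZMK. GZMA overlapped in the cells without GZMK, at 52.0 to 24136 and 35.6 to 1170.1 CPM. GZMK itself overlapped in the cells that carry it (1047 to 1955 and 1365 to 2479 CPM), as did EOMES (9.87 to 73.7 and 42.0 to 154 CPM), CXCR4 (107 to 489 and 152 to 1118 CPM) and ITGAE (103 to 195 and 0 to 189 CPM).

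The same 2 sets of libraries also differ in depth, with median UMIs per cell with GZMK of 3270 to 6440.5 in libraries 1, 2, 5, 10, 12 and 13 and 2228 to 2525.5 in libraries 3, 8, 9 and 11. Separation of GZMA, GZMB, PRF1 and GNLY held inside both barcode sets, namely libraries 1, 2 and 5 against library 3, and libraries 10, 12 and 13 against 8, 9 and 11. Libraries 3 and 10 have 6 and 8 cells with GZMK. The part of depth, barcode set and animal in these levels cannot be told apart here.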

How the data were processed

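The authors deposited raw UMI counts per gene and barcode. The file headers name Cell Ranger 3.1.0, and the submitters' processing notes add Seurat 3.1 with no role. No source used here gives the genome build. The deposited matrix holds 34628 genes and 57086 barcodes, of which the authors kept 20606 (20567 without library 4). The file names 23811 gene IDs, and a table of gene names supplied 695 more. Of 214 list names, 12 matched no symbol and were not analysed here. The authors' normalized matrix served only to find the kept cells. Symbols were used as given, without coordinates or sequences.

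UMIs were summed per library and kind of cell, scaled to CPM, and compared as log2 ratios with 5 CPM added, in libraries with 20 or more cells of both kinds and genes of at least 10 CPM on average. Per-cell shares were also taken after thinning to 1500 UMIs (seed 1). Intervals are exact (95%). Named genes were the markers, the 12 highest and 12 lowest called genes, every called list member and the defining list members, a few of which are not reported here. No doublet caller was run. The comparison was tested on simulated data. Members, lists and tests were chosen with earlier results of these data known. The planned comparison by label group was kept to values per library. Python 3.11.15, numpy 2.4.6, scipy 1.17.1, pandas 2.3.3, matplotlib 3.10.9, R 4.3.3 and edgeR 4.0.16 (TMM factors only) were used. Alternatives were other thresholds, scaling, filters, libraries and comparison cells.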

Additional observations from a re-analysis of the deposited data

Results flagged for a closer look

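In 34 sets of library values, the highest or lowest was checked for a gap to its neighbour that is large against the whole range, and 4 stood out, all of them the highest and all in library 12, which has 21 cells with GZMK and 1262 without. Chance alone would set apart about 1 in 20 such sets. The log2 ratios were 1.74 for GNLY, 2.92 for IFNG and 3.92 for MKI67, and the median over the cell division list was 3.32. MKI67 UMIs came from 1 of the 21 cells, while IFNG was found in 38.1% of them, against 26.5% of the cells without GZMK, and GNLY in 90.5% against 87.0%.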

How the results depend on the processing

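No p-value enters these results, and the counts of genes depend on how many libraries must share a sign. Against 345 higher and 289 lower genes in 5 libraries, the numbers were 539 and 469 with at least 2 GZMK UMIs (4 libraries), 989 and 798 with at least 2 CD8A UMIs (3), 2761 and 2921 with CD8B required (1), 697 and 741 after thinning to 1500 UMIs (3), 1891 and 1517 with at least 50 cells of both kinds (2), 887 and 736 in barcode set 1 (3), 1894 and 1388 in set 2 (2), and 1823 and 1463 without cells carrying B, plasma, myeloid or epithelial marker UMIs (2). TMM factors gave 199 higher, no filter on low genes 442 lower, and a mean of at least 50 CPM 183 and 143. Against ITGAE cells they were 600 and 511. With settings chosen after seeing the data, 8 libraries (at least 10 cells) gave 89 and 90, and 10 libraries 30 and 48. Leaving out each library gave 493 to 652 higher and 425 to 499 lower. The share of 18.8% was 15.8% with at least 2 GZMK UMIs and 22.1% with at least 2 CD8A UMIs, and leaving out each library in turn, added after seeing the data, gave 10.2% (without library 2) to 27.8% (without library 12). The mean of each cell's CPM gave 369 and 310, with 198 and 179 among the 345 and 289, and thinning kept 103 of each. Of 55 named genes and lists with 1 sign in all 5 libraries, 14 changed the sign of the median under some setting, in 17 values. With CD8B required (library 2 alone) these included TOP2A (-2.58), MKI67 (-2.55), the circulation list (-0.10), RGS2 (1.36), ATF3 (0.62), PIM2 (1.24), THY1 (0.63) and CTSH (1.61). After thinning they were KIF22 (-0.75), LAG3 (-0.25), CD96 (0.31), PIM2 (1.11) and CTSH (0.14). ENSMMUG00000057791 had 0.0054 with at least 2 CD8A UMIs and 0.63 without cells carrying other markers, and UBAP2 had 0.26 without such cells. Of 24 with mixed signs, 16 also changed, in 74 values: the cell division list (-1.38), NK receptors (-0.76), cytokines (-0.55), CCR7 (-1.57) and CCL5 (1.04) with CD8B required, CD28 (-0.20) and CCL5 (1.20) after thinning, GZMA (-0.25) with at least 50 cells and PDCD1 (-0.41) in barcode set 2 are among them. The cause was not tested. Some of these settings keep fewer cells and libraries, while TMM factors and the mean of each cell's CPM keep the same 5 libraries. The settings with 8 and 10 libraries, under which lists with mixed signs also changed, hold more. A further 130 values moved and 1733 did not. Cells with and without GZMK were compared inside each library. Beyond this pairing within libraries, no pairing by animal was possible, because the barcode numbers carry no replicate numbers of the labels. No test was made. In libraries 3, 8, 9, 10, 12 and 13 few cells limit the low genes.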

Other observations

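Genes outside the lists also differed in all 10 libraries. They were picked from the genes that kept 1 sign in each, after their values were seen, and are given as a description. CD38, an ectoenzyme of activated lymphocytes, had a median log2 ratio of 0.97, with 58.4 to 265 CPM in cells with GZMK and 16.9 to 153 CPM in cells without. PVRIG, an inhibitory receptor of the TIGIT family, had 0.78, CTSS, a lysosomal cathepsin, 0.64 and PLAAT4, an interferon-responsive phospholipase, 1.04. The proteasome genes PSMB6 (0.48), PSMA7 (0.46) and PSMB9 (0.45), the last an immunoproteasome subunit, were higher in each.

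Among genes lower in all 10 libraries were BCL2 (-0.81), which blocks apoptosis, MYC (-0.77), a transcription factor of cell growth, NFKBIA (-0.64), the NF-kappa-B inhibitor, CD7 (-0.77), FURIN (-0.98), a proprotein convertase, CYSLTR1 (-1.74), a leukotriene receptor, and SPINK2 (-1.21), a protease inhibitor. In libraries 3 and 10, with 6 and 8 cells with GZMK, such signs can rest on hardly any UMIs. Ribosomal protein genes, a list added after the values were seen, had 78 members measured in the 5 libraries, of which 0 were higher and 32 lower in each, with a median of -0.12, and -0.24 and 14 lower with TMM factors. In 10 libraries 12 of them were lower in each. Over all measured genes 4.7% were lower in each of the 5 libraries and 0.771% in each of the 10.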
